A study of Macaca mulatta with 32 samples.

Results

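CircRNA expression in the neocortex of rhesus macaques aged 20 years (20 y) was compared with that of macaques aged 10 years (10 y). The comparison took 20 of the 32 libraries of the series, chosen by the region and age in their labels. They covered 5 neocortical regions, namely the prefrontal (PFC), posterior cingulate (PCC), temporal (TC), parietal (PC) and occipital cortex (OC). Each region gave 1 library per sex at each age, named 10F and 10M for females and males of 10 years and 20F and 20M for those of 20 years, so that 10 libraries at 20 y stood against 10 at 10 y. Each library was made from RNA of 2 animals mixed before library preparation, and the same 4 pools (8 animals in all) were sampled in every region. All 20 libraries came from frozen post-mortem tissue, and in all of them linear RNA was digested with RNase R.

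CircRNAs are closed loops made when a downstream splice donor is joined back to an upstream acceptor. They are recognised in sequencing data by reads across that back-splice junction, and they resist RNase R because they have no free ends. Loops of this kind are abundant in neurons, many come from genes of synapses and signalling, and slow turnover in cells that do not divide has made ageing brain a tissue in which their accumulation is often examined. The library comparison asked which circRNAs of the primate neocortex differed between the adult and the aged state.

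The deposited table listed 43868 circRNAs above 0 in the neocortical libraries. Of these, 7988 passed the expression filter of the study and were above 0 in at least 5 of the 20 libraries, and they were the circRNAs tested. They held 6149 exonic, 549 intronic and 1290 intergenic loops, from 3237 host gene symbols. Back-splice reads per neocortical library, recovered from the values, ran from 58037 (TC_10M) to 894932 (PCC_20F). In 3 libraries (PFC_20F, PCC_20F and PC_10M) the study's library table gave over 95% of the reads as clean, and 2 of these 3 were 20F libraries. The calls for age and the counts by host gene group are also given without them. P-values measure the spread between libraries, which share animals within a pool. At the level of pools the design is 2 against 2, where an exact two-sided permutation test cannot give a p below 0.333.

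Values listed at 0 have to be read with care in these libraries. Of the tested circRNAs, 356 had a mean of at least 100 TPM over the libraries that listed them, and only 105 of the 356 were above 0 in all 20 libraries. Another 222 were listed at 0 in 1 to 4 libraries and 29 in 5 or more. WDR41, among the 5 most abundant circRNAs, was listed at 0 in 3 libraries although it ranged from 458 to 4260 TPM in the other 17. The number of zeros at which at least 100 back-splice reads would have been counted at the mean level of the other libraries ran from 2 (TC_10M) to 260 (PCC_20F) per library. An exact 0 is therefore written here as listed at 0 and not as absence.

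As whole libraries, the ages overlapped in each of the 9 measures compared, and no measure had an adjusted p under 0.05 in a permutation test. The circRNA values of a library summed to 213210 ± 45539 TPM at 10 y and 231060 ± 51843 TPM at 20 y (SD, n = 10 each; permutation test, p = 0.422). After the same number of reads (58037) had been drawn from every library, 5019 ± 891 circRNAs were found at 10 y and 4915 ± 847 at 20 y (permutation test, p = 0.785). Reads in exonic circRNAs made up 76.7% ± 0.898 of the reads at 10 y and 76.1% ± 0.414 at 20 y (permutation test, p = 0.1002), the smallest p of the 9 measures compared. Its Benjamini-Hochberg adjusted value was 0.721, and the exonic share was higher at 20 y in 2 of 10 pairs of region and sex. The 10 most abundant circRNAs took 9.79% ± 1.34 of the reads at 10 y and 9.36% ± 1.01 at 20 y. Back-splice reads, circRNAs found without equal reads, the intronic and intergenic shares and the distance between the joined ends had adjusted p-values of 0.721 to 0.859.

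**Figure D1:**
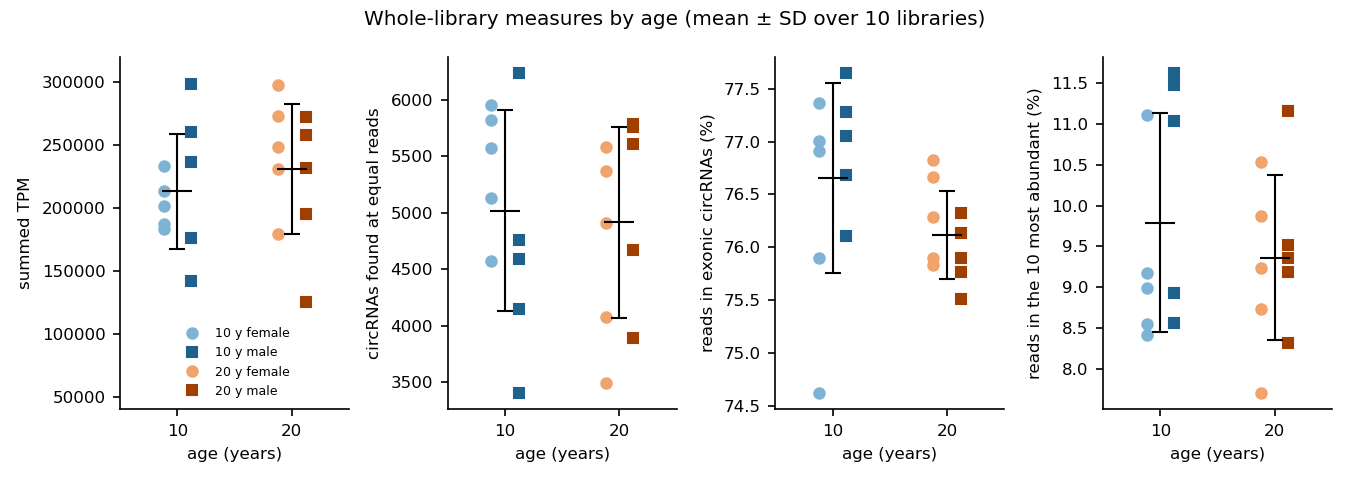
Summed TPM, circRNAs found at equal reads, percent of reads in exonic circRNAs and percent of reads in the 10 most abundant circRNAs, in each of the 20 neocortical libraries by age; points are libraries coloured by pool and bars are mean ± SD over 10 libraries. The ages overlap in all 4 measures, and the exonic share runs from 74.6% to 77.7% at 10 y and from 75.5% to 76.8% at 20 y.

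The 5 circRNAs with the highest mean level had similar mean TPM at the 2 ages. The exonic circRNA of GDAP1L1 (chromosome 10, 20186521 to 20187867) ranged from 1264 to 5979 TPM at 10 y and from 1274 to 5529 TPM at 20 y. Its log2 difference, 20 y minus 10 y, was -0.16 ± 0.24 (SE). The circRNA of KIAA0802 differed by -0.14 ± 0.31, with 0.56 in females and -0.85 in males. For the intergenic loop on chromosome 14 (127298190 to 127302852) the difference was 0.08 ± 0.29. WDR41 and C6ORF142 (MLIP in the reference table), the other two, were listed at 0 in 3 libraries and 1 library, and the differences were -0.85 ± 0.51 and 0.95 ± 0.43. Over the libraries that listed them, the differences of WDR41 and C6ORF142 were 0.28 ± 0.22 and 0.00 ± 0.21. All these differences are on the scale log2(TPM + 1.775), where 1.775 TPM was the typical smallest value above 0 of a library. Positions are those of the deposited table.

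Among the 7988 tested circRNAs, limma with region and sex as covariates called 3 higher at 20 y (0.0376%) and 1 lower (0.0125%), 0.0501% together, at a Benjamini-Hochberg adjusted p under 0.05. The 3 higher ones were a loop of GNB1, which encodes a beta subunit of heterotrimeric G proteins, an intronic loop of FBXO9, an F-box subunit of SCF ubiquitin ligases, and an intergenic loop on chromosome 6. The lower one was an exonic loop of FAM172A. At an unadjusted p under 0.05, 282 circRNAs were higher (3.53%) and 236 lower (2.95%), 6.48% together. With the 3 libraries of over 95% clean reads left out, limma called 0, and the smallest adjusted p was 0.386. At an unadjusted p under 0.05 it then gave 248 higher and 185 lower. Limma on values divided by size factors also called 0, with 251 higher and 274 lower at an unadjusted p under 0.05, so that the larger side turned, and voom on recovered reads gave 0 calls with 145 and 389.

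The exonic GNB1 circRNA (chromosome 1, 4846317 to 4871196, minus strand) was listed at 0 in 4 of the 10 libraries at 10 y, with a median of 234 TPM and a highest value of 655 TPM. At 20 y its values ran from 278 to 1051 TPM with a median of 371 TPM, so the ages overlapped. The log2 difference was 3.25 ± 0.68 (limma adjusted p = 0.0201), with 3.43 in females and 3.07 in males. The libraries at 0 were PFC and PCC of 10F and PCC and TC of 10M. The 6 libraries at 10 y that listed it had a mean of 431 TPM against 473 TPM at 20 y. With values of 0 taken as missing, an alternative chosen after the data had been seen, the difference was 0.10 ± 0.32 (limma adjusted p = 0.999).

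The intergenic loop of chromosome 6 (9747759 to 9748503, minus strand) also differed mainly by zeros. It was listed at 0 in 4 libraries at 10 y and reached 684 TPM there (median 283 TPM), and it ran from 220 to 879 TPM at 20 y (median 605 TPM). Its log2 difference of 3.38 ± 0.70 (limma adjusted p = 0.0201) became 0.25 ± 0.30 over the libraries that listed it (limma adjusted p = 0.978). The libraries at 0 were PFC, TC and OC of 10F and PCC of 10M, and the difference was 4.999 in females and 1.75 in males.

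The intronic FBXO9 loop (chromosome 4, 52668190 to 52673447, plus strand) was also listed at 0 in 4 libraries at 10 y, with a median of 108 TPM and a highest value of 248 TPM. These were PCC of 10F and PFC, TC and OC of 10M. At 20 y it ran from 152 to 585 TPM with a median of 207 TPM. The log2 difference was 3.21 ± 0.71 (limma adjusted p = 0.0299). Over the libraries that listed it the means were 178 TPM at 10 y and 276 TPM at 20 y, a difference of 0.69 ± 0.34 (limma adjusted p = 0.854).

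The FAM172A loop (chromosome 6, 90275747 to 90278232, minus strand) was listed in all 10 libraries at 10 y, from 51.8 to 274 TPM with a median of 83.9 TPM. At 20 y it was listed at 0 in 5 libraries, with a median of 9.97 TPM and a highest value of 207 TPM. These 5 were PFC, PCC and TC of 20F and PFC and TC of 20M. The log2 difference was -3.35 ± 0.75 (limma adjusted p = 0.0299), and -1.28 ± 0.47 over the libraries that listed it (limma adjusted p = 0.743). Each of the 4 calls overlapped between the ages. Without the 3 libraries of over 95% clean reads the log2 differences were 2.77 for GNB1, 2.85 for the intergenic loop, 3.69 for FBXO9 and -2.89 for FAM172A, with limma adjusted p-values of 0.526 to 0.905. Left out singly, 8 to 11 of the 20 libraries ended each call.

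**Figure D2:**
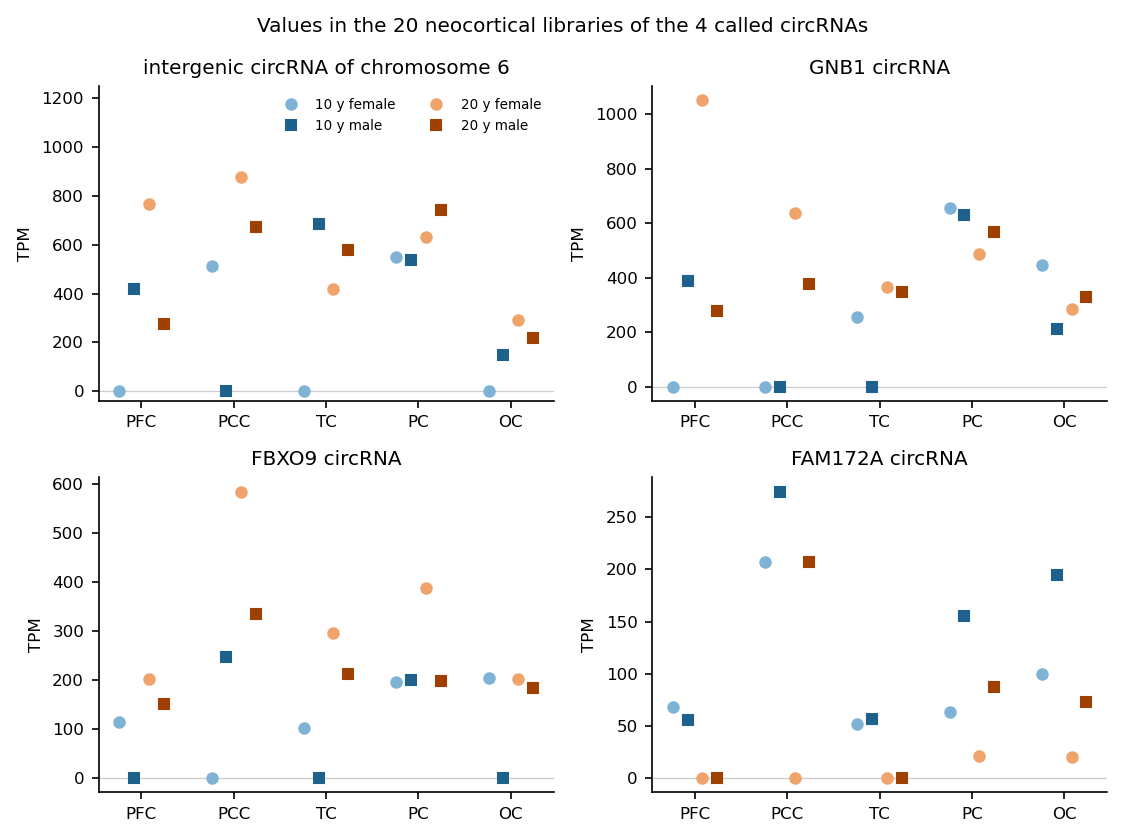
TPM of the 4 circRNAs called for age in the 20 neocortical libraries, by region (x axis) and pool (colour and shape). For GNB1, FBXO9 and the intergenic loop 4 libraries of 10 y lie at 0 and the highest 10 y values lie within the range of 20 y; for FAM172A 5 libraries of 20 y lie at 0.

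Around these calls, the 10 smallest p-values in each direction, among circRNAs with the same direction in both sexes, belonged to loops of moderate level listed at 0 in several libraries. Higher at 20 y without reaching the adjusted threshold were loops of the zinc finger genes ZNF790 and ZNF483, of PDIA3, a protein disulfide isomerase of the endoplasmic reticulum, and 4 further intergenic loops. ZNF790 was listed at 0 in all 10 libraries at 10 y and averaged 22.3 ± 19.4 TPM at 20 y, where 8 of 10 libraries listed it (limma adjusted p = 0.116). An intergenic loop of chromosome 6 (11754121 to 11754437) averaged 10.5 ± 17.9 TPM at 10 y and 57.3 ± 28.4 TPM at 20 y, with a log2 difference of 3.25 ± 0.78 (limma adjusted p = 0.0848). Its difference over the libraries that listed it was 2.02 ± 0.52 (limma adjusted p = 0.0856).

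On the lower side stood loops of NEBL, which encodes an actin-binding protein, GTF3C1, a subunit of an RNA polymerase III factor, TAF9, a subunit of the general factor TFIID, CTNNA2, the neuronal alpha catenin, RFWD2, a ubiquitin ligase, SPINK5, a protease inhibitor, NSF, the ATPase that takes SNARE complexes apart, and 2 intergenic loops. NEBL (chromosome 9, 21088117 to 21097539) was listed in all 10 libraries at 10 y, from 9.72 to 203 TPM, and in 3 at 20 y, with a highest value of 9.17 TPM. It was the only tested circRNA whose ages did not overlap, 0.0125% of those tested, and its limma adjusted p was 0.144. NSF averaged 40.4 ± 42.9 TPM at 10 y and 7.33 ± 20.5 TPM at 20 y (limma adjusted p = 0.583).

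A two-sided unpaired t-test on TPM without adjustment called 241 circRNAs higher at 20 y (1.49%) and 188 lower (1.16%) of 16207, 2.65% together. None had an adjusted p under 0.05, the lowest being 0.680. A permutation test of 100000 draws gave 257 higher and 198 lower, and the t-test on values divided by size factors gave 232 higher and 259 lower, so that the larger side turned. Leaving out pool 10M turned these t-test counts to 73 and 549, and leaving out pool 20M to 606 and 61. Without pool 10F they were 82 and 292, and without pool 20F 432 and 40.

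The study listed 23 circRNAs for age beside divergent RT-PCR primers, which face away from each other on linear RNA and so amplify a loop. It chose them on these samples, so their direction here is no independent evidence. Of the 5 listed for 10 y, 5 had the higher mean at 10 y in neocortex, and of the 18 listed for 20 y, 17 had the higher mean at 20 y. Only 16 of the 23 were above 0 in at least 5 neocortical libraries and could be tested. Of these, 1 of 3 listed for 10 y and 7 of 13 listed for 20 y had an unadjusted limma p under 0.05 on the listed side, and 0 an adjusted p under 0.05 (lowest 0.636). The primer pairs of the 4 with the smallest p are shown to identify these loops, each 5′ to 3′ with forward before reverse, in lower case throughout because the junction is not marked in them.
NEK1 forward: aagattgaaggcggtgtctaa
NEK1 reverse: tccctccactgccaagaaa
GRIA1 forward: aggtgcgatttgaaggtttga
GRIA1 reverse: tgggatggtgtctgtgtagtt
SYT1 forward: gtaactgaggaatggcgtgac
SYT1 reverse: aagcagcaggtcaggactaa
NTRK2 forward: tggtggtgattgcgtctgt
NTRK2 reverse: cgtctgtggaagggatttcatt

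NEK1, a kinase of cilia and the DNA damage response, gave a loop at chromosome 5, 161637121 to 161653176. It ran from 0 to 51.3 TPM at 10 y (median 19.1 TPM, listed at 0 in 3 libraries) and from 15.3 to 140 TPM at 20 y (median 49.7 TPM). The log2 difference was 2.29 ± 0.76 with a 95% interval of 0.78 to 3.80, and limma gave an unadjusted p of 0.00327 and an adjusted p of 0.636. Over the libraries that listed NEK1 it was 1.18 ± 0.46, so the direction held there, with a limma adjusted p of 0.794.

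NTRK2, the receptor of brain-derived neurotrophic factor, had the highest level of the listed loops (chromosome 15, 93475831 to 93486082). It ran from 0 to 381 TPM at 10 y (median 277 TPM, listed at 0 in 1 library) and from 181 to 600 TPM at 20 y (median 388 TPM). The log2 difference was 1.35 ± 0.54 (limma adjusted p = 0.725), with 2.02 in females and 0.68 in males, and 0.67 ± 0.28 over the libraries that listed it.

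GRIA1, a subunit of AMPA glutamate receptors, was listed at 0 in all 10 libraries at 10 y and in 5 of 10 at 20 y, with a highest value of 25.9 TPM. SYT1, the calcium sensor of vesicle release, was listed for 10 y and ran the other way, above 0 in 8 libraries at 10 y with a highest value of 29.0 TPM and in 1 library at 20 y with 5.94 TPM. Limma gave adjusted p-values of 0.670 for both.

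Loops of the receptor FGFR2, the calmodulin-dependent kinase CAMK1, the protein kinase PKN2 and the Hippo kinase LATS1 had log2 differences of 1.58, 1.56, 1.68 and 1.62, each with an unadjusted limma p under 0.05. Those of CACNA1E, MAP3K9, THRB and TAOK1 were 1.36, 0.86, 0.78 and 0.47, and their 95% intervals included 0. FGFR2 and CAMK1 were each listed in 2 libraries at 10 y and 7 at 20 y, with means of 0.79 and 1.06 TPM at 10 y. Over the libraries that listed them, PKN2 and LATS1 differed by 0.35 ± 0.51 and 0.81 ± 0.46. A second CAMK1 loop (chromosome 2, 51237166 to 51237428), above 0 in all 20 libraries, differed by 0.13 ± 0.54. Both sexes had the listed direction in 2 of the 3 tested loops for 10 y and in 10 of the 13 for 20 y.

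**Figure D3:**
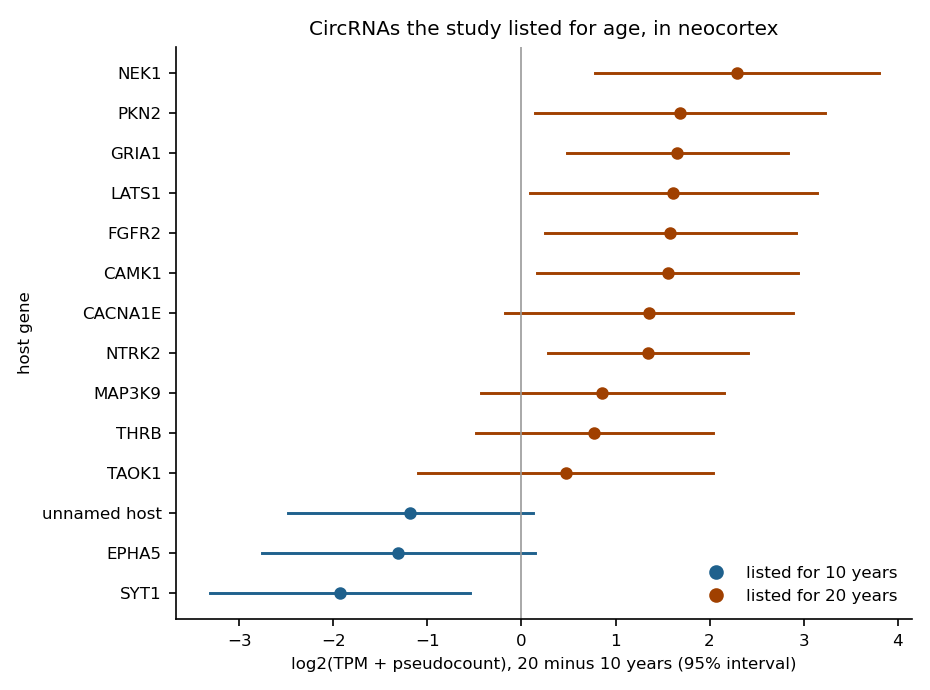
Log2 difference, 20 y minus 10 y, with its 95% interval from limma, for 14 of the 16 tested circRNAs that the study listed for age; colour gives the listed age. Of the loops plotted NEK1 has the largest difference (2.29) and SYT1 the lowest (-1.93).

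Calcium channel genes, which admit calcium when the membrane depolarises, were followed as a group because the study singled out CACNB2, CACNA1E and CACNA2D1. For the CACNA1E and CACNA2D1 loops the study also reported higher levels in the older animals by other assays. These were northern blots of hippocampus and in situ hybridization in PFC and hippocampus. It described its qPCR on PFC and hippocampus as matching the in situ hybridization. Those assays were not part of the data tested here. In neocortex 21 loops of 6 channel genes were tested. Of these, 2 were higher and 1 lower at an unadjusted limma p under 0.05, 10 had a positive and 11 a negative difference, where 3.53% of all tested circRNAs were higher and 2.95% lower. Without the libraries of over 95% clean reads 1 was higher and 2 lower. The median was 0.00 against 0.05 over all tested circRNAs. CACNB2, a beta subunit, gave 6 tested loops whose differences ran from -1.15 to 1.59. One of them (chromosome 9, 18806110 to 18818657) was above 0 in 5 libraries at 10 y, up to 10.3 TPM, and listed at 0 in all 10 at 20 y. Another (18834346 to 18836161) averaged 3.25 ± 9.72 TPM at 10 y and 12.9 ± 15.2 TPM at 20 y. The most abundant CACNB2 loop (18827260 to 18836161) averaged 18.2 ± 16.8 and 20.4 ± 23.7 TPM, with a difference of 0.00 ± 0.77.

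CACNA1E, the pore of R-type channels, averaged 4.79 ± 7.48 TPM at 10 y and 13.1 ± 12.3 TPM at 20 y (limma adjusted p = 0.799). The CACNA2D1 loop, of an alpha-2-delta subunit, was above 0 in 4 neocortical libraries, all of pool 20M, and was not tested. In hippocampus, the CACNA2D1 loop was above 0 in CA1 of 20F (20.94 TPM) and 20M (15.27 TPM) and in dentate gyrus of 20F (22.58 TPM). It was listed at 0 in dentate gyrus of 20M, in all cerebellar libraries and in every library of 10 y. CACNA1A, the pore of P/Q-type channels, gave the largest positive difference of the group, from 8.68 ± 9.27 to 27.8 ± 18.4 TPM, which was 1.95 ± 0.78 on the log2 scale (limma adjusted p = 0.725). CACNA1A was listed in 6 libraries at 10 y and 10 at 20 y. Over the libraries that listed it the difference was 0.59 ± 0.51.

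The other 13 lists of host genes likewise held no adjusted call in either direction, and FBXO9 was in none of them. Their counts are at an unadjusted limma p under 0.05 and are to be read against the 3.53% of all tested circRNAs that were higher and the 2.95% that were lower. In genes of the presynaptic active zone and vesicle release, 3 of 91 loops were higher and 3 lower at an unadjusted p under 0.05, with a median of 0.05, shares near those of all tested circRNAs. The higher ones were DNM3, a dynamin that pinches off vesicles (70.8 ± 80.2 to 147 ± 64.5 TPM), and 2 loops of the scaffold gene RIMS1. DNM3 was listed in 7 libraries at 10 y and 10 at 20 y. It differed by 2.38 ± 0.71, and by 0.53 ± 0.38 over the libraries that listed it. The lower ones were NSF, SYT1 and PPFIA2, the last encoding a liprin scaffold.

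In the MAP kinase cascade 2 of 53 loops were higher, among them the kinase MAP2K5 (4.14 ± 6.68 to 21.2 ± 15.7 TPM), and 2 were lower, MAP2K4 and MAPK9. MAP2K5, listed in 4 libraries at 10 y, differed by 2.34 ± 0.78, and by 0.76 ± 0.61 over the libraries that listed it. MAP2K4 differed by 0.56 in females and -3.77 in males, and by 0.26 over the libraries that listed it, so that its direction turned there. Of the 36 loops of receptor tyrosine kinases, NTRK2 and FGFR2 were higher and AXL lower, with a median of 0.22. AXL differed by -1.80 over all libraries and by 0.56 over those that listed it. FANCL, a ubiquitin ligase of the Fanconi pathway of DNA repair, was the 1 of 25 loops of the DNA damage response that passed, from 72.9 ± 57.4 to 176 ± 102 TPM. It differed by 2.02 ± 0.68, and by 0.90 ± 0.35 over the libraries that listed it.

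In the list of ubiquitin ligases, which held neither FBXO9 nor FANCL, 5 of 105 loops were lower (CUL5, MYCBP2, FBXW7, BIRC6 and MIB1) and 0 higher, and the median was -0.15. In the Alzheimer and tau related genes 3 of 42 were lower, namely LRP1B, an LDL receptor family member, PICALM, a clathrin adaptor, and APLP2, an APP-like protein. The median there was -0.33, and -0.38 on values divided by size factors. It was -0.50 in females and 0.00 in males. Of the 42 loops 14 had a positive and 28 a negative difference. The positive one with the smallest p was a loop of APP (chromosome 3, 20679928 to 20708969), from 40.5 ± 30.8 to 87.8 ± 66.0 TPM. It differed by 1.29 ± 0.75, and by 0.95 ± 0.41 over the libraries that listed it. A second PICALM loop (chromosome 14, 84357599 to 84362875) differed by -0.19 ± 0.74. Without the libraries of over 95% clean reads the counts were 0 higher and 6 lower for the ubiquitin ligases and 1 higher and 3 lower for the Alzheimer and tau related genes.

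Among genes that act on splicing and circularization 2 of 48 loops were higher (RBFOX1 and CELF2) and 3 lower (2 of KHDRBS1 and 1 of KHDRBS2). Of the calcium stores, pumps and calmodulin-dependent kinases 2 of 37 were higher (the calcium release channel RYR3 and CAMK1), of the ionotropic glutamate receptors 1 of 14 (GRIA1) and of the synaptic adhesion genes 1 of 30 (PTPRD), with 0 lower. In insulin, mTOR and longevity genes a loop of PIK3C3, a lipid kinase of autophagy, was higher and one of PIK3R1 lower, of 46. The PIK3R1 loop differed by -3.59 in females and 0.23 in males. Sodium and potassium channels and the metabotropic glutamate and GABA receptors held 0 of 25 and 0 of 18 at an unadjusted p under 0.05. Over the remaining 11 lists, leaving out the libraries of over 95% clean reads changed each count in either direction by at most 1.

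**Figure D4:**
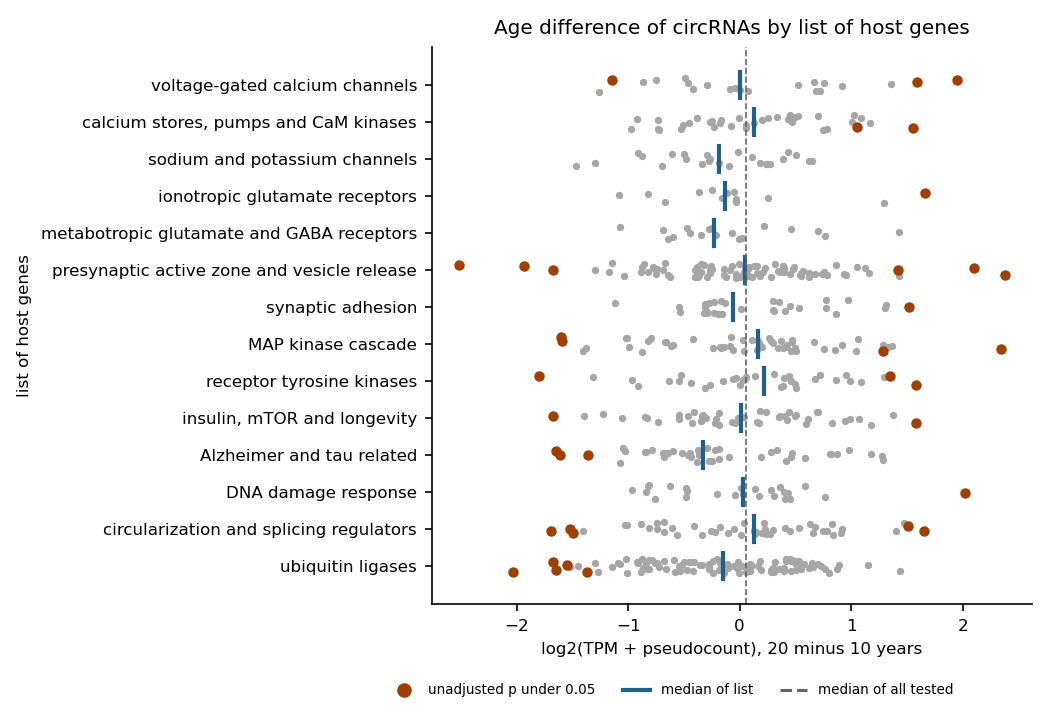
Log2 difference, 20 y minus 10 y, of each tested circRNA in 14 lists of host genes; brown points have an unadjusted limma p under 0.05, blue bars are list medians and the dashed line is the median over all 7988 tested circRNAs (0.05). List medians run from -0.33 (Alzheimer and tau related) to 0.22 (receptor tyrosine kinases).

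Host genes that mark cell types were sparse among the tested loops. Loops of the projection neuron list summed to 177 to 993 TPM at 10 y and 174 to 735 TPM at 20 y, and those of the cerebellar neuron list to 0 to 19.3 and 0 to 32.8 TPM. The projection neuron list was above 0 in all 20 libraries and the cerebellar list was at 0 in 9. No loop of the 13 microglial markers was tested, and the lists of oligodendrocytes, astrocytes and endothelium held 3, 4 and 1, with 5 of inhibitory neurons. Their summed levels overlapped between the ages. In these bulk samples fewer cells of a type and less RNA per cell cannot be told apart.

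Females and males share neither animals nor libraries, so each gave its own age difference. Across the 7988 tested circRNAs, which are not independent of each other, Pearson's r between the 2 differences was -0.018 and Spearman's correlation -0.019. The sign was the same in 3898 circRNAs (48.8%). Among the 193 circRNAs above 0 in all 20 libraries it was the same in 93 (48.2%), with r = -0.046. The median difference over all tested circRNAs was -0.06 in females and 0.16 in males. Over the 193 it was 0.30 in females and -0.002 in males, so that the order of the sexes turned. On values divided by size factors the 193 gave 0.02 and 0.03. Fitted within a sex, limma called 0 at an adjusted p under 0.05 in either, with 222 higher and 289 lower at an unadjusted p under 0.05 in females and 231 and 90 in males.

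**Figure D5:**
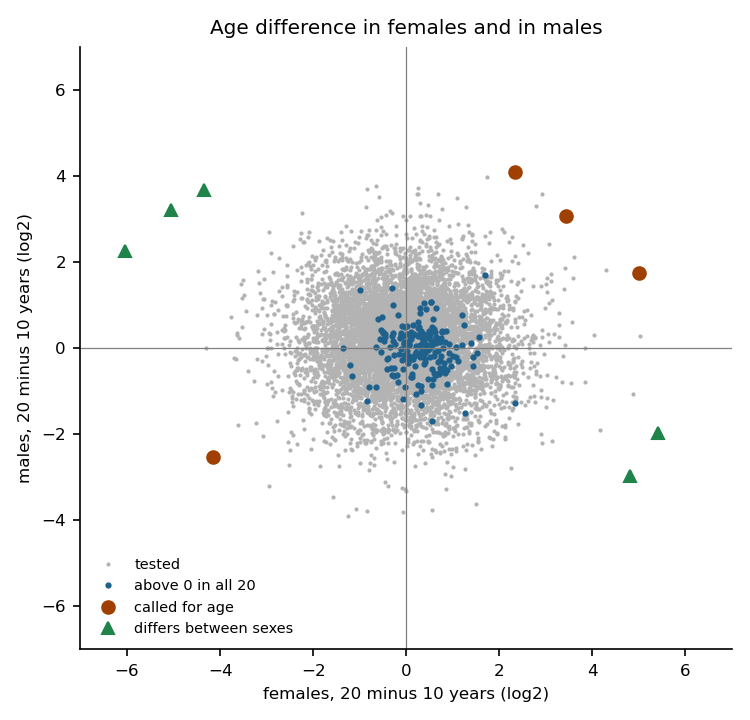
Log2 difference, 20 y minus 10 y, in females (x axis) and males (y axis) for the 7988 tested circRNAs; blue points are the 193 above 0 in all 20 libraries, brown the 4 called for age and green the 5 whose age difference differed between the sexes. The cloud is round (Pearson's r = -0.018), and the green points lie in the quadrants of opposite sign.

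The age difference itself differed between the sexes in 5 circRNAs (0.0626%; limma interaction, adjusted p under 0.05). Values of 4 of them by pool show where they differed. C4ORF23 averaged 294 TPM in 10F, 8.46 in 10M, 13.6 in 20F and 55.4 in 20M. TBC1D4, a Rab GTPase-activating protein, was listed at 0 in all 5 libraries of 20F and averaged 119, 85.7 and 123 TPM in 10F, 10M and 20M. KIF1B, a kinesin motor of axonal transport, was above 0 in 10M (18.1 TPM) and 20F (58.4 TPM) and listed at 0 in all libraries of 10F and 20M. An intergenic loop on scaffold 1099214731323 (1981 to 2902) was listed at 0 in all 5 libraries of 10F and ran from 14.5 TPM upwards in all 15 others. Of the tested circRNAs it was the only one listed at 0 in all libraries of a single pool and above 0 in all others. In hippocampus and cerebellum it was again listed at 0 in all 3 libraries of 10F and above 0 in all 9 others. These differences between pools cannot be told apart from differences between the animals in them.

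Between regions, limma's F test called 2 circRNAs (0.025%), TLK2 (chromosome 16, 58058721 to 58060185; adjusted p = 0.000299) and AP3B2 (chromosome 7, 63846919 to 63847711; adjusted p = 0.0319), named here after their values had been seen. TLK2, a chromatin assembly kinase, was listed at 0 at 10 y in both libraries of TC and above 0 at 20 y there (617.97 and 698.61 TPM), and in OC it had 376 and 263 TPM at 10 y and was listed at 0 in both libraries at 20 y. AP3B2, a subunit of the neuronal AP-3 adaptor, was listed at 0 in both OC libraries at 10 y and had 264 and 267 TPM at 20 y. With 2 libraries per region and age these patterns rest on single libraries. Over all tested circRNAs the median difference was -0.25 in PFC, 0.20 in OC and 0.00 in PCC, PC and TC, and on values divided by size factors it was -0.18 in PFC and 0.05 in OC. Over the circRNAs above 0 in all 20 libraries it was 0.12 in PFC, so that the sign turned there. In the other regions these gave 0.25 in OC, 0.30 in PCC, 0.04 in PC and 0.10 in TC. With size factors they gave 0.09 in PFC and -0.01 in OC. PFC_20F, with over 95% clean reads, listed 4126 circRNAs against 7896 to 10052 in the other 3 PFC libraries.

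In the hippocampus of the same pools (8 libraries of CA1 and dentate gyrus), the age differences of the called circRNAs were 3.44 for FBXO9, 1.98 for the intergenic loop, -1.77 for FAM172A and -2.47 for GNB1. FBXO9 was listed at 0 in CA1 of 10F and 10M, and GNB1 in dentate gyrus of 20F. The intergenic loop was listed at 0 in CA1 of 10M and in dentate gyrus of 10M and 20M. FAM172A was listed in all 8 libraries, from 177 to 421 TPM at 10 y and from 54.5 to 92.4 TPM at 20 y. Of the 7988 circRNAs 6.45% had an unadjusted p under 0.05 for age in hippocampus, and among these 4 they were FBXO9 and GNB1, the latter lower at 20 y. The contrast of neocortex and hippocampus called 0 circRNAs at an adjusted p under 0.05, with 286 higher and 144 lower in neocortex at an unadjusted p under 0.05. On values divided by size factors these were 159 higher and 243 lower, so that the larger side turned. The smallest p-values belonged to GNB1, C6ORF142 and PDIA3 (limma adjusted p = 0.185 each), with age differences higher in neocortex by 5.72, 4.09 and 6.35 on the log2 scale. GNB1, C6ORF142 and PDIA3 were each listed at 0 in 1 or more neocortical libraries. In hippocampus their zeros were at 20 y, in dentate gyrus of 20F for GNB1 and of 20M for C6ORF142. PDIA3 was listed at 0 there in CA1 of 20F and dentate gyrus of 20M.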

How the data were processed

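CircRNA sequencing of 20 neocortical libraries (2 animals each) was analysed. The authors removed ribosomal RNA, digested linear RNA and found back-splice junctions with CIRI2, and the submitters' processing notes name cutadapt and BWA. The authors deposited values in TPM, and the genome build is not given in the sources used here. Within each library all values were whole multiples of 1 step (100% within 0.1 step, smallest value 2 reads), which gave back-splice reads. The study's filter (at least 3 reads in 2 libraries of a region, in 2 or more regions, or in 1 region with at least 6 libraries in all, or at least 30 reads over all libraries) kept 17050 of 52828 circRNAs. Tests used limma 3.58.1 in R 4.3.3 on log2(TPM + 1.775) with region, sex and age, an empirical Bayes trend and Benjamini-Hochberg adjustment, with NumPy 2.4.6 and SciPy 1.17.1 in Python 3.11.15. The tests were tried on simulated data. Depth ran from 58037 to 894932 back-splice reads, and amplified copies are not independent molecules. Named circRNAs were those of smallest p with 1 direction in both sexes, those the study listed, the most abundant, the leading members of each list and those of smallest p for sex and hippocampus, while other list members and the remaining calls were named after their values had been seen. Size factors, a stricter filter, other pseudocounts, blocks and left-out libraries were alternatives. Some circRNAs are not reported here. Members and lists were chosen with earlier results of these data known.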

Additional observations from a re-analysis of the deposited data

Results flagged for a closer look

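PCC_20F held 894932 back-splice reads against a median of 221570 in the 10 libraries at 20 y, and its gap to the next library was 0.649 of the range of the group. This passed the 95% critical value of Dixon's ratio, which chance passes in about 1 in 20 groups. Without the 3 libraries of over 95% clean reads, of which it is one, limma called 0 circRNAs for age.

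The age difference of males minus that of females, on the log2 scale, was 8.26 for C4ORF23 (chromosome 5, 320738 to 323521) and 8.30 for TBC1D4 (chromosome 17, 55786915 to 55787376). It was -7.77 for KIF1B (chromosome 1, 13384849 to 13389454) and -7.39 for the intergenic loop of scaffold 1099214731323. The interaction test of limma gave adjusted p-values of 0.00189 to 0.00285. In the 3 hippocampal and cerebellar libraries of each pool, KIF1B was again listed at 0 in all of 10F and 20M, whereas TBC1D4 was listed at 0 in CA1 and cerebellum of 20F and had 92.4 TPM in its dentate gyrus. Between regions the F test gave an adjusted p of 0.0319 for AP3B2 and 0.000299 for TLK2.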

How the results depend on the processing

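Limits: 4 pools stand behind the 20 libraries, zeros in abundant circRNAs are frequent, and the scale of the deposited values is not that of size factors. Of 43 other settings, 28 ended the call of FAM172A, 27 that of FBXO9, 25 that of GNB1 and 21 that of the intergenic loop, with no change of direction. The other 16 circRNAs with the smallest p, not called for age, became called in 11 of 670 values. The 3 higher and 1 lower calls became 0 and 0 with circRNAs above 0 in at least 10 libraries, with size factors, with the same total, with the replicate block of region and sex, without libraries over 95% clean, and, chosen after seeing the data, with voom on recovered reads, clean reads as covariate or TPM summed per host gene. They became 5 and 1 with a pseudocount of 10 TPM, 8 and 2 with a correlation within pools (estimated at -0.0586), 2 and 0 on means of the 4 pools or with no further filter, and 4 and 2 with values of 0 as missing. On the 4 pool means, limma's empirical Bayes step takes most of the spread from other circRNAs. Calls on pool means therefore do not measure the spread between animals. The counts at an unadjusted p under 0.05 (282 and 236) became 131 and 113 with at least 10 libraries, 465 and 409 with a correlation within pools, 191 and 149 on pool means, 145 and 389 with voom, 172 and 141 with values of 0 as missing and 132 and 96 per host gene. Size factors gave 251 and 274. The median difference over all circRNAs was 0.05, 0.00 with size factors and -0.25 with voom.

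Leaving out regions, pools or single libraries gave 0 to 5 higher and 0 to 3 lower calls, and 222 to 349 higher and 126 to 350 lower at an unadjusted p under 0.05. The calls fell to 0 without PCC, PFC, TC, pool 10F or pool 20F, and without any of the libraries PFC_20F, PFC_20M, PCC_20F, TC_20F and TC_20M, and to 1 without PFC_10F, PCC_10F, PCC_10M or TC_10M. The t-test gave 73 to 606 higher and 40 to 549 lower over the regions and pools left out, and 122 lower without libraries over 95% clean. The paired test gave 224 and 171. Libraries of the same region and sex hardly deviated together (correlations of -0.034 to 0.095, own partner closest in 7 of 20), so the block shares a label more than a sample. The calls for a difference between sexes fell from 5 to 3 with at least 10 libraries, those between regions from 2 to 1 with a pseudocount of 10 TPM, at least 10 libraries or without libraries over 95% clean, and without the latter neocortex and hippocampus differed in 1 circRNA, RBM23 (-6.91, limma adjusted p = 0.00334).

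With a region or pool left out, the differences between ages ran from -6528 to 182700 back-splice reads, -684 to 1028 circRNAs found, -494 to 286 at equal reads, -0.861 to -0.246 percentage points for the exonic, -0.0305 to 0.568 for the intronic and -0.322 to 0.871 for the intergenic share, -0.967 to 0.111 for the 10 most abundant and -0.0259 to 0.0157 for the log10 distance. The exonic share passed without TC (permutation p = 0.00509) and without pool 10F (0.00695), and the intergenic share without pool 10F (0.0424). The exact sign-flip test over the 10 pairs changed no call of a whole-library measure. The count test of edgeR was not run, and voom was run on the recovered reads in its place. The causes were not tested.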

Other observations

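CircRNAs called with values of 0 taken as missing form another set. Limma then called 6 of 5560 circRNAs, 4 higher and 2 lower at 20 y, with 172 and 141 at an unadjusted p under 0.05. They are named after their values had been seen. An intronic loop of SMYD3, a lysine methyltransferase (chromosome 1, 210926235 to 210927541), averaged 36.03 TPM in 8 libraries at 10 y and 112 TPM in 10 at 20 y (log2 difference 1.86 ± 0.41, limma adjusted p = 0.0143). A loop of PIK3R1, the regulatory subunit of phosphoinositide 3-kinase (chromosome 6, 66076889 to 66077608), averaged 47.4 TPM in 7 libraries at 10 y and 9.36 TPM in 7 at 20 y (-2.58 ± 0.53, limma adjusted p = 0.00646). In the test on all libraries, SMYD3 and PIK3R1 had differences of 2.39 and -1.68 and limma adjusted p-values of 0.458 and 0.745. The PIK3R1 difference over all libraries was -3.59 in females and 0.23 in males. Its pools averaged 53.3 TPM in 10F, 13.1 in 10M, 3.03 in 20F and 10.1 in 20M. C4ORF23 and intergenic loops of chromosomes 7 and 13 were also called.

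Intergenic circRNAs passed an unadjusted limma p under 0.05 in 9.22% of 1290, intronic in 7.83% of 549 and exonic in 5.79% of 6149. Among circRNAs above 0 in all 20 libraries it was 2.07% of 193, and 21 of these 193 had a 95% interval of the age difference within 1 on the log2 scale. Of the 7988 tested circRNAs 42 were found at 20 y only and 30 at 10 y only. Back-splice reads averaged 306010 ± 227700 at 20 y and 217930 ± 123800 at 10 y, and these counts were not taken at equal reads. Summed per host gene, 3475 genes gave 0 calls, with 132 higher and 96 lower at an unadjusted p under 0.05. The loops of STX17, a SNARE of autophagosomes, found in all 20 libraries, went from 988 to 559 TPM (log2 difference -0.81 ± 0.24, limma adjusted p = 0.691).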
